A study of Mus musculus with 12 samples.

Results

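The genes described here encode the voltage-gated calcium and sodium channels and the potassium channels of the mouse. They were chosen by gene symbol: rows of the count table that begin with Cacna, Cacnb, Cacng or Kcn, or with Scn and a digit, leaving out Kcnq1ot1, antisense genes and names with a colon. The rule found 133 genes of 22738 rows, of which 26 encode calcium channel subunits, 14 sodium channel subunits and 93 potassium channel subunits. A filter on low counts kept 119 of them for testing (24 calcium, 12 sodium and 83 potassium), among 17426 tested genes in all.

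Voltage-gated calcium and sodium channels open when the membrane depolarises and let in the ions that start an action potential and trigger secretion. Potassium channels let potassium out, set the resting potential and end each depolarisation. Small cell lung carcinoma is a neuroendocrine tumour whose cells are electrically excitable, and antibodies that some patients raise against its P/Q-type calcium channels cause the Lambert-Eaton myasthenic syndrome.

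RNA was measured in lung tumours of Rb1 fl/fl; p53 fl/fl; Myc T58A mice, called RPM tumours, in which intratracheal Ad5CGRP-Cre given at 8 weeks of age deletes Rb1 and Trp53 and turns on the Myc allele. Every group carried these alleles and received the virus, whose CGRP promoter directs Cre to neuroendocrine cells. The 4 groups of 3 libraries each were entinostat with anti-PD-1 antibody (the combination), entinostat alone, anti-PD-1 alone and control. Entinostat, an inhibitor of class I histone deacetylases, was given by mouth at 15 mg/kg daily for 28 days, and the antibody, which blocks a checkpoint receptor of T cells, by intraperitoneal injection at 10 mg/kg for 4 weeks. Which agent the control mice were given, the methylcellulose vehicle or an isotype antibody, is not stated per library. It is also not stated whether the libraries of a group came from different mice, so the p-values measure the spread between these libraries, which exceeded counting error and may be in part technical.

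The combination libraries held 31295987 to 36146798 counts, the entinostat libraries 31987261 to 40469275, the anti-PD-1 libraries 34107018 to 37076865 and the control libraries 40534618 to 54001886. The channel genes together took 0.103% to 0.23% of the counts of a library. The neuroendocrine identity of the tumours was visible but uneven: Neurod1 ranged between 5.65 and 490 CPM (counts scaled to library depth with TMM factors) over the 12 libraries. Rb1 had 26.6 to 81.7 CPM and Trp53 8.40 to 20.0 CPM over the 12. Myc had 157 to 211 CPM in the combination libraries, 183 to 273 CPM with entinostat, 79.1 to 165 CPM with anti-PD-1 and 50.6 to 99.7 CPM in the control libraries. Since counts are per whole gene and all groups carry the same alleles, these levels do not check the labels. Control library 1 stood apart, with the highest Neurod1 of all. The structural RNAs Rpph1, Rn45s and Rmrp took 17.7% to 18% of counts in the combination libraries, 15.2% to 19.3% with entinostat, 20.5% to 36.4% with anti-PD-1 and 7.84% to 13.2% in the control libraries. Every treated library therefore lay above every control library in this share, whose part in the differences from control was not tested.

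The channel with the most reads was Cacna2d1, the alpha2delta-1 subunit that brings calcium channels to the membrane and binds gabapentin. It had 286, 218 and 277 CPM in the combination libraries, 168, 350 and 680 CPM with entinostat, 300, 87.0 and 155 CPM with anti-PD-1, and 378, 305 and 416 CPM in the control libraries. All combination and all anti-PD-1 libraries lay below the 3 control libraries, while entinostat alone held the highest value of the 12 and also a value below every control library, and Cacna2d1 passed no test (anti-PD-1 against control log2 fold change -1.02, SE 0.48, adjusted p = 0.342 in edgeR's quasi-likelihood test). Scaled by the length of the longest annotated transcript, the mean level over the 12 libraries was 40.6 CPM per kb for Cacna2d1, against 16.1 for Kcnj3, 12.0 for Kcnip3, 7.96 for Kcnk1 and 7.13 for Cacna1b. Of these, Kcnj3 is a G-protein-gated inward rectifier, Kcnip3 modulates fast potassium channels, Kcnk1 is a leak channel and Cacna1b is the N-type calcium channel of nerve terminals.

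Kcnj3 had 62.5, 53.1 and 53.1 CPM in the combination libraries, 62.6, 78.7 and 105 CPM with entinostat, 161, 73.6 and 71.5 CPM with anti-PD-1, and 110, 82.3 and 92.7 CPM in the control libraries. Each combination library was below each control library for Kcnj3, a difference that did not pass (log2 fold change -0.76, SE 0.31, adjusted p = 0.124). Cacna1b had 57.4, 45.0 and 120 CPM in the combination libraries, 47.2, 65.2 and 100 CPM with entinostat, 85.9, 63.4 and 71.8 CPM with anti-PD-1, and 77.5, 44.1 and 55.4 CPM in the control libraries, with overlap between all groups. Cacna1a, the P/Q-type pore that is the target of the Lambert-Eaton antibodies, had 30.7 to 72.0 CPM in the combination libraries, 10.2 to 80.3 CPM with entinostat, 39.2 to 59.8 CPM with anti-PD-1 and 23.9 to 51.5 CPM in the control libraries. Cacna1c, the L-type pore of muscle and endocrine cells, ranged between 42.0 and 60.7 CPM in the combination libraries, 39.9 and 62.0 CPM with entinostat, 45.0 and 98.1 CPM with anti-PD-1, and 28.2 and 128 CPM in the control libraries. Kcnq5, a pore of the slow M-current, had 14.3 to 33.6 CPM in the combination libraries, 15.1 to 63.3 CPM with entinostat, 21.6 to 45.8 CPM with anti-PD-1 and 38.5 to 51.2 CPM in the control libraries.

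**Figure D1:**
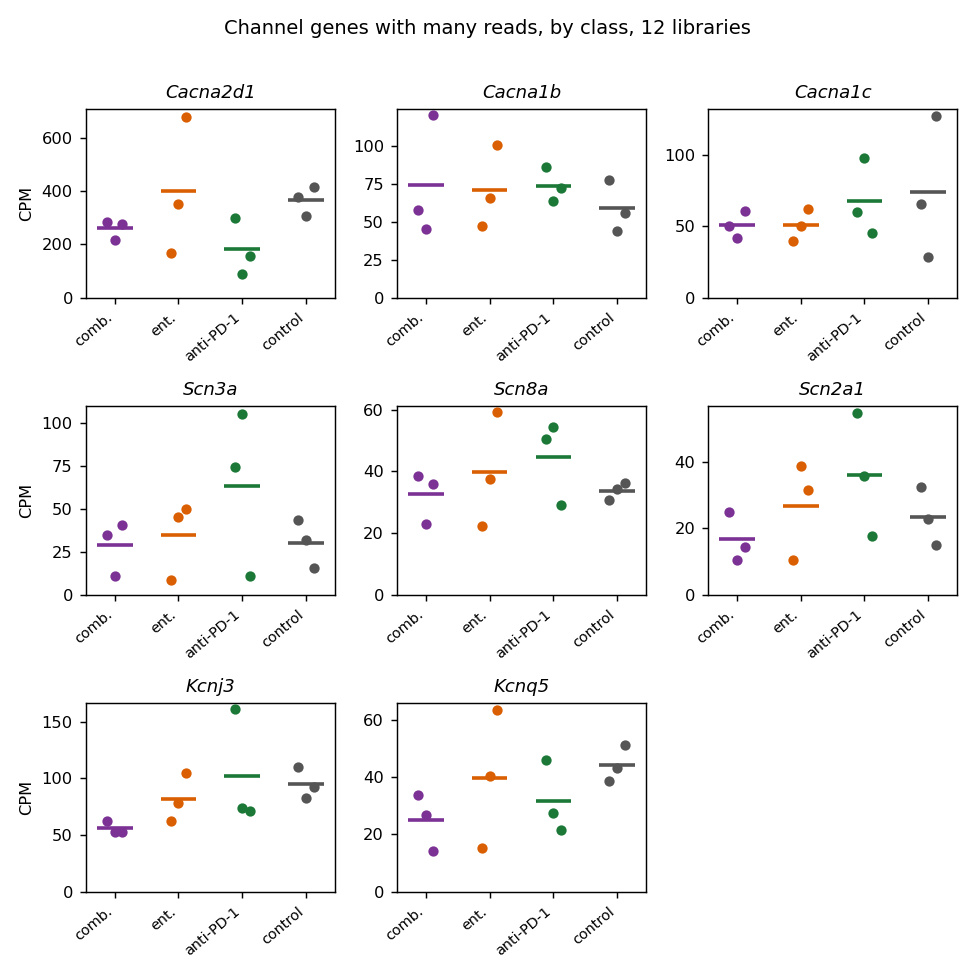
CPM of 8 channel genes with many reads, 2 or 3 from each class, 1 panel per gene, with a linear axis from 0; points are the 12 libraries in the order combination, entinostat, anti-PD-1 and control, and bars are group means. For Cacna2d1 the 3 control libraries lie between 305 and 416 CPM and the entinostat libraries spread between 168 and 680 CPM.

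Summed over all its genes, no class showed a treatment group that stood apart from the others. Calcium channel genes summed to 734 ± 239 CPM in the combination libraries, 744 ± 419 with entinostat, 549 ± 107 with anti-PD-1 and 710 ± 119 in control (SD, n = 3 each). Sodium channel genes summed to 132 ± 37.1 CPM in the combination libraries, 161 ± 64.1 with entinostat, 198 ± 70.3 with anti-PD-1 and 140 ± 16.5 in control (SD, n = 3 each). Potassium channel genes summed to 613 ± 115 CPM in the combination libraries, 644 ± 188 with entinostat, 777 ± 181 with anti-PD-1 and 720 ± 107 in control (SD, n = 3 each). The calcium sums of the entinostat group varied most, with 368, 667 and 1200 CPM, and within each class the ranges of all treated groups overlapped that of control. Cacna2d1 was the largest part of the calcium sum in every library but anti-PD-1 library 2, so that sum weighs this gene most.

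Few channel genes passed a test, fewer than the share of all genes in each comparison with calls. Against control, 6 of 119 channel genes passed in the combination (5.04%, against 11.7% of all tested genes; 5 higher and 1 lower, against 3.88% and 7.78%), and 1 passed with entinostat alone (0.84%, against 5.27%; higher, against 1.3% of all genes higher and 3.98% lower). With anti-PD-1 alone 0 passed by edgeR (0.00574% of all genes, a single gene), 5 had an unadjusted p under 0.05 (15.4% of all genes) and DESeq2 called 3 (2.52%, against 4.04% of all genes). Setting the 6 libraries with entinostat against the 6 without it, as the mean of the entinostat effect with and without the antibody, 4 of 119 passed (3.36%, against 10.6% of all genes; 3 higher and 1 lower, against 3.87% and 6.74%). At an unadjusted p under 0.05 there were 18 channel genes in the combination against control (30.2% of all genes), 17 with entinostat alone (24.4%) and 24 over the entinostat libraries (29.1%). DESeq2 called 11 channel genes in the combination against control (20.6% of all genes), 9 with entinostat alone (13.7%) and 14 over the entinostat libraries (19.6%), below the share of all genes in each. The 8 genes that passed somewhere were 7 potassium channel genes (Kcnma1, Kcnmb1, Kcna7, Kcna4, Kcnh3, Kcnip4 and Kcne3) and 1 calcium channel gene (Cacna1g). The control libraries are shared between the 3 comparisons with control, so their results are not independent of each other.

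Over the whole set the fold changes were small in the median. The median log2 fold change of the tested channel genes against control was 0.49 in the combination, 0.28 with entinostat and 0.40 with anti-PD-1, where the median of all tested genes was 0.05, 0.00 and -0.00. Upper-quartile scaling moved the median of all genes to 0.28 in the combination, 0.20 with entinostat and 0.17 with anti-PD-1, and the channel medians to 0.80, 0.48 and 0.56 in the same groups. Over the 6 entinostat libraries against the other 6, the median was 0.27 for potassium channels, 0.17 for calcium channels and -0.12 for sodium channels, with 0.02 for all genes; the sodium value was 0.02 with upper-quartile scaling, and the potassium value was -0.00 without the filter on low counts. By subfamily, the median log2 fold changes in the combination, with entinostat and with anti-PD-1 against control were 1.31, 0.41 and 0.32 for calcium pore subunits. They were 1.31, 1.05 and 0.72 for calcium- or sodium-activated potassium channels, 0.88, 0.48 and 0.89 for Kcnk leak channels, 0.67, 0.48 and 0.28 for voltage-gated potassium pores, 0.67, -0.21 and -0.05 for inward rectifiers and -0.27, -0.52 and 0.33 for potassium auxiliary subunits. Sodium pores gave -0.05, 0.24 and 0.62 and sodium beta subunits 0.49, 0.53 and 0.50, in the same order. Calcium alpha2delta subunits gave 0.87, 0.38 and 0.49, beta subunits 0.36, -0.20 and 0.28 and gamma subunits -0.08, -0.11 and 0.51. Upper-quartile scaling turned the sign for sodium pores (0.18) and gamma subunits (0.19) in the combination, for calcium beta (0.05) and gamma subunits (0.12) with entinostat, and for inward rectifiers with anti-PD-1 (0.21).

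**Figure D2:**
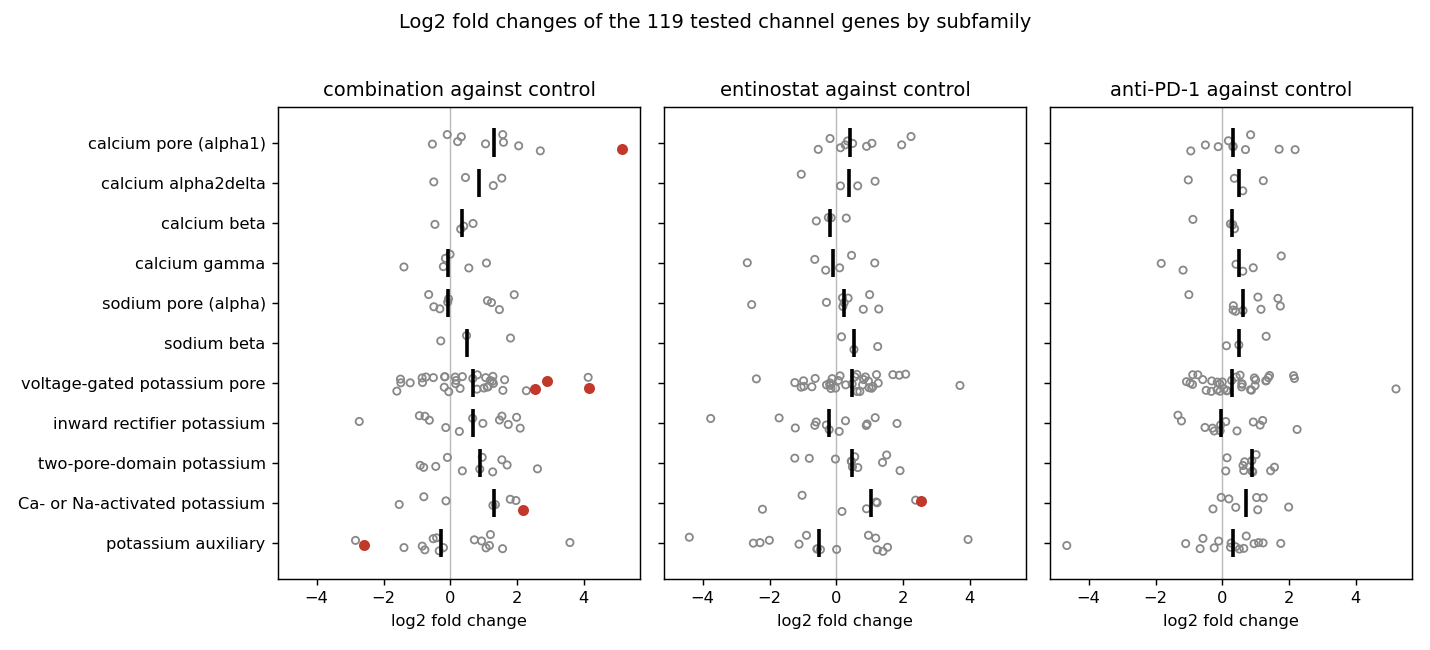
Log2 fold change against control of the 119 tested channel genes, 1 point per gene and 1 row per subfamily, in panels for the combination, entinostat and anti-PD-1; filled red points passed the adjusted p threshold of 0.05, open points did not, and black bars are medians. In the combination 6 genes are filled, with entinostat 1 (Kcnma1) and with anti-PD-1 0.

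Kcnma1 and Kcnmb1 encode the pore and the beta1 subunit of the BK channel, which opens on calcium and depolarisation and relaxes smooth muscle. Kcnma1 had 13.5, 7.50 and 6.79 CPM in the combination libraries, 4.75, 21.1 and 9.35 CPM with entinostat, 13.6, 2.93 and 7.64 CPM with anti-PD-1, and 2.56, 1.93 and 1.59 CPM in the control libraries. Every treated library was above every control library. Kcnma1 rose with entinostat alone (log2 fold change 2.53, SE 0.64, adjusted p = 0.044, n = 3 each) and in the combination (2.19, SE 0.63, adjusted p = 0.045), and with anti-PD-1 alone its log2 fold change was 1.99 (SE 0.63, adjusted p = 0.181). With entinostat alone the Kcnma1 call passed in 2 of the 12 fits that each left out a library, and its value was 1.77 without entinostat library 2 (adjusted p = 0.166). In the combination it passed in 4 of 12, and its value was 1.81 without combination library 1 (adjusted p = 0.144). Kcnmb1 had 13.6, 4.55 and 0.427 CPM in the combination libraries, 1.47, 15.3 and 7.09 CPM with entinostat, 1.97, 2.19 and 1.06 CPM with anti-PD-1, and 0.352, 0.683 and 0.506 CPM in the control libraries. It was higher in the 6 libraries with entinostat than in the 6 without (log2 fold change 2.89, SE 0.74, adjusted p = 0.032), although combination library 3 and entinostat library 1 lay within the range of the libraries without entinostat. The call was lost without combination library 1 (2.23, adjusted p = 0.084) and without entinostat library 2 (2.43, adjusted p = 0.081), and it passed in 4 of the 12 fits that each left out a library.

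The other BK subunits gave 0 calls by edgeR, while DESeq2 called Kcnmb2 over the entinostat libraries. Kcnmb4, the beta4 subunit of neurons, had 0.114 to 6.13 CPM in the combination libraries, 0.0586 to 1.25 CPM with entinostat, 0.423 to 3.38 CPM with anti-PD-1 and 0.278 to 9.55 CPM in the control libraries. Kcnmb2 had 0.956 to 10.1 CPM in the combination libraries, 1.12 to 3.63 CPM with entinostat, 2.15 to 28.2 CPM with anti-PD-1 and 2.61 to 26.4 CPM in the control libraries. Kcnmb1 overlaps Kcnip1 on the opposite strand and the strand setting of the counting is not stated. Their reads may therefore be mixed, which was not tested.

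Some smooth muscle and pericyte markers were, like Kcnmb1, higher over the 6 entinostat libraries as a set, and library by library they differed in how they ran beside it. Of a list of 12, none of them at 0 in all libraries, 3 were higher over the 6 entinostat libraries against the other 6 (Myh11, Notch3 and Cspg4; 3.87% of all genes were higher) and 0 were lower, with a median log2 fold change of 0.85. With anti-PD-1 against control, 0 passed by edgeR and the median was -0.27. There 4 had an unadjusted p under 0.05, 2 higher and 2 lower (15.4% of all genes). The summed level of the list was 244 to 335 CPM in the combination libraries and 219 to 371 CPM with entinostat. It was 138 to 254 CPM with anti-PD-1 and 248 to 333 CPM in the control libraries, so the groups overlapped in that sum. The mean log2 level of the list overlapped less. It was 3.22 to 3.61 in the combination libraries, 3.00 to 3.58 with entinostat, 2.15 to 2.66 with anti-PD-1 and 2.45 to 3.06 in the control libraries. Only entinostat library 3 (3.00) lay below a library without entinostat, control library 2 (3.06). Myh11, smooth muscle myosin, had 8.18, 10.8 and 13.4 CPM in the combination libraries, 14.9, 13.4 and 6.84 CPM with entinostat, 3.44, 5.86 and 2.69 CPM with anti-PD-1, and 4.01, 7.37 and 5.62 CPM in the control libraries. A fit with the mean log level of the list as a covariate, added after seeing the data, gave Kcnmb1 a log2 fold change of 2.22 (adjusted p = 0.912) and called 0 of all 17426 genes in that comparison. Since that level nearly divided the libraries by entinostat, the fit cannot separate it from the agent. The mean log2 level of the list was highest in combination library 3 (3.61) and entinostat library 1 (3.58). Those held the least Kcnmb1 of the 6 entinostat libraries. It was 3.56 in entinostat library 2, which held the most Kcnmb1. Of the 3 markers that passed, Cspg4 was highest in combination library 1 (31.2 CPM) and entinostat library 2 (24.95 CPM), which held the most Kcnmb1. Notch3 was highest in combination library 3 (39.0 CPM) and Myh11 in entinostat library 1 (14.9 CPM). The part of these cells in the Kcnmb1 result was not tested. In bulk tumour RNA, a change in the number of cells of a type and a change in RNA per cell cannot be told apart.

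The annotated start regions of the 2 BK genes are given with that of Kcna7, the gene with the smallest adjusted p, because they differ in base composition although each gene rose in a comparison of entinostat libraries. The windows span 250 bases before to 50 after the RefSeq start on GRCm38.p6, written 5′ to 3′ on the gene's strand, and capitals mark matches on either strand to GGGCGG, the GC box bound by Sp and KLF factors. They lie at chr14:24004156-24004455 on the minus strand for Kcnma1, chr11:33962763-33963062 on the plus strand for Kcnmb1 and chr7:45405710-45406009 on the plus strand for Kcna7.
Kcnma1: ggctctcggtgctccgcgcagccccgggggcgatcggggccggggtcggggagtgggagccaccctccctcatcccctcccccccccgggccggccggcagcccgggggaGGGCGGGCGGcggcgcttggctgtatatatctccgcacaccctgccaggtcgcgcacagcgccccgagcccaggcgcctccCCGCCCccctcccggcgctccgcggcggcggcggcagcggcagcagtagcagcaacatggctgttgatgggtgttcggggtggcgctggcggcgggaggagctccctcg
Kcnmb1: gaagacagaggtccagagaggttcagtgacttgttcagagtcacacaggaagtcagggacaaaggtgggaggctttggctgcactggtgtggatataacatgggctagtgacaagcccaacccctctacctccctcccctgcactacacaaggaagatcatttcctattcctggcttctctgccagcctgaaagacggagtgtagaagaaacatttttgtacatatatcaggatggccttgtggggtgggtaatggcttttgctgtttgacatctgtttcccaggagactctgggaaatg
Kcna7: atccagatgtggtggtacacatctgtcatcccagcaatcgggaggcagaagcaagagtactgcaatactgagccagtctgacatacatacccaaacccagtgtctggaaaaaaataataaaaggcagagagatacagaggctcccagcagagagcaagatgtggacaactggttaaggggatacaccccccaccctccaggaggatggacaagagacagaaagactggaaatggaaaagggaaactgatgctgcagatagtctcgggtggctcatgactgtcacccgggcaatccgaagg
The Kcnma1 window had 78% G and C and 3 GC boxes, 2 of them overlapping, against 49.7% for Kcnmb1 and 50.3% for Kcna7, which had none. A GC box occurred in 44.8% of the 134 windows of channel genes and in 35.7% of all 32851 windows. TATAAA occurred in 5.22% of channel windows and 13.6% of all, CACGTG in 5.22% and 7.15%, TGANTCA in 3.73% and 7.81%, and the CArG box in 0% and 1.63%, on either strand. These are matches of letters in a fixed window and show no binding.

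Kcna7 and Kcna4 are shaker-type voltage-gated channels, Kcna4 being the fast-inactivating one, and Kcnh3 belongs to the ether-a-go-go family of the brain. Kcna7 had 0.715, 0.981 and 1.96 CPM in the combination libraries, 0.704, 0.820 and 0.550 CPM with entinostat, 0, 0.0706 and 0.151 CPM with anti-PD-1, and 0.235, 0.145 and 0.101 CPM in the control libraries. All 6 libraries with entinostat were above all 6 without, on 18 to 78 reads per library with entinostat and 0 to 12 reads without. Kcna7 rose over the entinostat libraries (log2 fold change 3.02, SE 0.62, adjusted p = 0.016) and in the combination against control (2.89, SE 0.84, adjusted p = 0.047), and entinostat alone gave 2.08 (SE 0.82, adjusted p = 0.151). It was the only channel gene whose call over the entinostat libraries passed in each of the 12 fits that left out a library (log2 fold changes 2.73 to 3.53). In the combination against control the Kcna7 call passed in 2 of those 12 fits (2.37 to 3.27).

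Kcna4 had 1.94, 2.84 and 4.60 CPM in the combination libraries, 2.62, 3.31 and 0.916 CPM with entinostat, 17.1, 0.282 and 1.93 CPM with anti-PD-1, and 0.157, 0.207 and 0.152 CPM in the control libraries. The control libraries held 6 to 10 reads, and all 9 treated libraries were above them in CPM. Anti-PD-1 library 2 held 8 reads, within the control range, and lay above control only after scaling (0.282 against at most 0.207 CPM). Kcna4 rose in the combination (log2 fold change 4.16, SE 1.18, adjusted p = 0.043), a call that passed in 3 of the 12 fits that left out a library (3.77 to 4.41). With anti-PD-1 alone its log2 fold change was 5.20 (SE 1.23, adjusted p = 0.114), on values that span 0.282 to 17.1 CPM, and with entinostat alone 3.70 (SE 1.16, adjusted p = 0.082). Kcnh3 had 0.600, 0.553 and 2.77 CPM in the combination libraries, 0.901, 0.527 and 1.04 CPM with entinostat, 0.401, 0.318 and 0.574 CPM with anti-PD-1, and 0.157, 0.228 and 0.278 CPM in the control libraries. It rose in the combination (log2 fold change 2.55, SE 0.74, adjusted p = 0.047), where combination library 3 decided the value, which was 1.37 without that library (adjusted p = 0.224); the call passed in 1 of 12 such fits. Kcnh3 overlaps Mcrs1 on the opposite strand, so reads of the 2 genes may be mixed.

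Kcnip4 encodes a calcium-binding subunit that slows the inactivation of Kcnd channels, and Kcne3 a single-span subunit that holds an epithelial potassium channel open. Kcnip4 had 6.12, 4.98 and 6.11 CPM in the combination libraries, 5.47, 6.21 and 5.62 CPM with entinostat, 4.21, 3.92 and 2.75 CPM with anti-PD-1, and 1.49, 3.56 and 2.58 CPM in the control libraries. It was the most even of the called genes: all 6 libraries with entinostat lay between 4.98 and 6.21 CPM, above all 6 without it (log2 fold change 0.92, SE 0.27, adjusted p = 0.048). That call passed in 1 of the 12 fits that left out a library, with log2 fold changes of 0.78 to 1.08. Kcne3 had 1.46, 0.729 and 1.28 CPM in the combination libraries, 1.47, 2.14 and 1.59 CPM with entinostat, 6.55, 2.61 and 0.604 CPM with anti-PD-1, and 8.57, 4.26 and 8.05 CPM in the control libraries. By edgeR, Kcne3 was the only channel gene that fell in the 9 comparisons: -2.59 on the log2 scale in the combination against control (SE 0.71, adjusted p = 0.039) and -1.75 over the entinostat libraries (SE 0.49, adjusted p = 0.043). The Kcne3 calls passed in 4 and in 3 of the 12 fits that left out a library, with log2 fold changes of -2.84 to -2.34 and of -2.01 to -1.25. With upper-quartile scaling neither Kcne3 comparison passed. Anti-PD-1 library 3 was the lowest of all 12, so the groups with and without entinostat overlapped. Both genes overlap annotated genes on the opposite strand.

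Cacna1g, the T-type calcium channel that opens near the resting potential, had 12.0, 4.75 and 73.1 CPM in the combination libraries, 3.69, 4.98 and 3.36 CPM with entinostat, 0.936, 5.01 and 2.36 CPM with anti-PD-1, and 2.45, 0.0207 and 0.0506 CPM in the control libraries. Control libraries 2 and 3 held 1 and 2 reads of it and control library 1 held 125, whereas each of the 6 entinostat libraries held 110 to 2908. It rose in the combination against control (log2 fold change 5.14, SE 1.51, adjusted p = 0.049). Single libraries decided the value: it was 3.30 without combination library 3 (adjusted p = 0.177) and 9.62 without control library 1 (adjusted p = 0.018). Cacna1g passed in 2 of the 12 fits that left out a library. The other T-type pores did not pass: Cacna1h had 29.5 to 69.6 CPM in the combination libraries, 22.7 to 51.0 CPM with entinostat, 19.1 to 47.4 CPM with anti-PD-1 and 4.49 to 55.8 CPM in the control libraries, and Cacna1i had 0.257 to 11.6 CPM in the combination libraries, 1.55 to 5.80 CPM with entinostat, 2.50 to 8.59 CPM with anti-PD-1 and 0.202 to 2.52 CPM in the control libraries.

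Among the other calcium channel genes, Cacna1e, the R-type pore, had 23.9, 72.1 and 96.6 CPM in the combination libraries, 5.56, 22.6 and 53.9 CPM with entinostat, 12.9, 6.92 and 13.9 CPM with anti-PD-1, and 21.4, 35 and 8.48 CPM in the control libraries. Its combination libraries were all above those with anti-PD-1 alone, a difference that DESeq2 called and edgeR did not (log2 fold change 2.51, SE 0.77, adjusted p = 0.262 by edgeR). Cacna2d3, another alpha2delta subunit, had 8.38 to 27.5 CPM in the combination libraries, 5.91 to 15.2 CPM with entinostat, 5.86 to 9.53 CPM with anti-PD-1 and 1.52 to 14.2 CPM in the control libraries. Cacnb3, a beta subunit that carries the pore to the membrane, reached 50.8 CPM in combination library 3 and 39.1 CPM in control library 1 and had 3.93 to 20.0 CPM in the other 10 libraries. Of the 14 tested alpha2delta, beta and gamma genes 0 passed by edgeR or DESeq2 in the 9 comparisons, and 1 (Cacna2d1, over the libraries with the antibody) had an unadjusted p under 0.05.

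**Figure D3:**
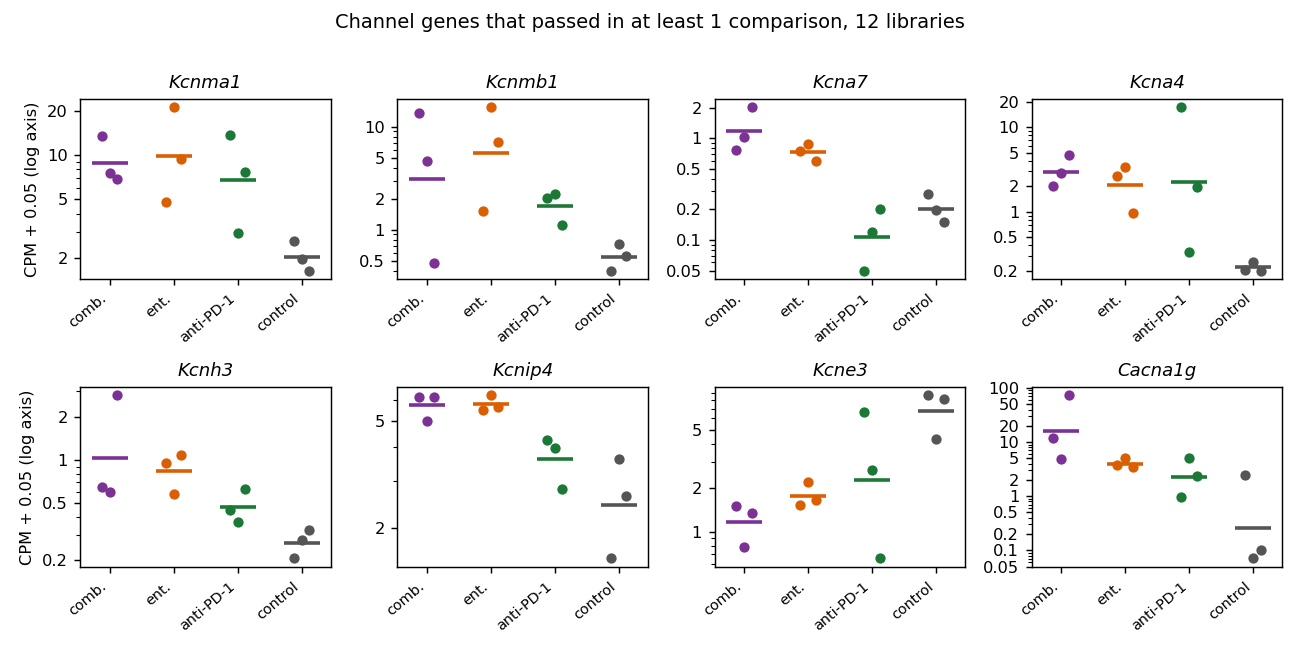
CPM plus 0.05 on a log axis of the 8 channel genes that passed in at least 1 comparison; points are the 12 libraries in the order combination, entinostat, anti-PD-1 and control, and bars are geometric means of the plotted values. Kcna7 and Kcnip4 separate the 6 libraries with entinostat from the 6 without, and Kcne3 alone is highest in control.

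No sodium channel gene passed in any of the 9 comparisons by edgeR, with 2 of 12 at an unadjusted p under 0.05 over the entinostat libraries (29.1% of all genes) and 2 in the combination against control (30.2%). DESeq2 called 1 in 3 of the 9. Its calls among all genes ran from 0.00574% to 20.6% over the 9 comparisons. Among the pores, Scn3a had 34.8, 10.9 and 40.2 CPM in the combination libraries, 8.51, 44.9 and 49.8 CPM with entinostat, 74.4, 105 and 10.8 CPM with anti-PD-1, and 43.6, 31.6 and 15.5 CPM in the control libraries. The groups overlapped throughout. Scn8a, the pore of the axon initial segment, had 23.0 to 38.6 CPM in the combination libraries, 22.3 to 59.4 CPM with entinostat, 29.0 to 54.3 CPM with anti-PD-1 and 30.8 to 36.2 CPM in the control libraries. Scn2a1 had 10.5 to 24.9 CPM in the combination libraries, 10.3 to 38.6 CPM with entinostat, 17.7 to 54.6 CPM with anti-PD-1 and 14.8 to 32.4 CPM in the control libraries.

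The remaining comparisons gave 0 channel genes by edgeR. In the combination against anti-PD-1 alone, 8 had an unadjusted p under 0.05 (12.4% of all genes), DESeq2 called 2 (2.43%), and 0% of all genes passed; the smallest adjusted p was that of Kcna7 (log2 fold change 3.97, SE 0.92, adjusted p = 0.201). In the combination against entinostat alone, 1 had an unadjusted p under 0.05 (1.55% of all genes), DESeq2 called 0 (0.00574%), and 0% of all genes passed. Over the 6 libraries with the antibody against the 6 without, 7 had an unadjusted p under 0.05 (10.8% of all genes), DESeq2 called 0 (0.591%), and 0% of all genes passed. The interaction of the agents gave 4 at an unadjusted p under 0.05 (6.04% of all genes), 0 by DESeq2 (0.344%) and 0% of all genes. Its smallest adjusted p was that of Kcna4 (log2 difference -4.75, SE 1.53, adjusted p = 0.722). A test for any difference among the 4 groups gave 0 by edgeR (4.25% of all genes), 16 at an unadjusted p under 0.05 (22.7% of all genes) and 11 by DESeq2 (16.8%), with Kcna7 nearest (adjusted p = 0.054).

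Genes whose libraries did not overlap were also counted. All 6 libraries with entinostat lay above all 6 without for 3 of 119 channel genes (2.52%, against 2.01% of all genes), Kcna7 and Kcnip4 among them, and below for 0 (against 2.32%). All 9 treated libraries lay above the 3 control libraries for 5 genes (4.2%, against 2.71%) and below for 0 (against 6.55%). Those 5 were Kcnma1, Kcna4, Kcnh3, Kcnd1, a fast transient channel, and Kcnk6, a leak channel. Kcnd1 had 1.72, 1.89 and 2.26 CPM in the combination libraries, 1.58, 1.87 and 3.12 CPM with entinostat, 1.54, 1.27 and 1.69 CPM with anti-PD-1, and 0.900, 1.20 and 1.26 CPM in the control libraries. The gap between anti-PD-1 library 2 and control library 3 was thus 1.27 against 1.26 CPM. Against control alone, 20 genes were above in the combination (16.8%, against 15.2%), 13 with entinostat (10.9%, against 13.1%) and 13 with anti-PD-1 (10.9%, against 6.79%). Below control were 5 genes in the combination (4.2%, against 16.7%), namely Cacna2d1, Kcne3, Kcnj3, Kcnq5 and the sperm channel gene Kcnu1, 2 with entinostat (1.68%, against 15.7%) and 1 with anti-PD-1 (0.84%, against 10.7%). Kcnu1 had 0.886 to 1.73 CPM in the combination libraries, 0.572 to 1.25 CPM with entinostat, 0.917 to 8.31 CPM with anti-PD-1 and 2.42 to 6.17 CPM in the control libraries, and its difference over the entinostat libraries did not pass (log2 fold change -1.85, SE 0.54, adjusted p = 0.051).

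Some channels differed widely within a group. Kcna1, a shaker-type channel of axons, had 842 of its 886 reads in control library 1 and did not pass the filter. The same library held the highest value of the inward rectifier Kcnj12 (33.9 CPM, against 0.151 to 6.86 CPM in the other 11) and of Kcne1l (4.54 CPM, against 0 to 0.603 CPM). Cacna2d2 had 44.5 CPM in control library 1, 1.18 and 1.37 CPM in the other control libraries, 58.9 CPM in combination library 3 and 52.2 CPM in anti-PD-1 library 3. Combination library 3 held the highest value of 28 of the 119 tested channel genes, and control library 3 the lowest of 26. The 14 genes below the filter were Kcna1 and 13 with at most 39 reads in any library: Cacng1, Cacng6, Scn4b, Scn10a, Kcnj1, Kcnj16, Kcnk9, Kcnk15, Kcnk18, Kcna10, Kcnv2, Kcng4 and Kcne1. In the fit without the filter on low counts, 0 of the 14 passed in the 9 comparisons, and 0 to 4 had an unadjusted p under 0.05. The 4 were in anti-PD-1 against control, where 12.6% of all 21996 genes in that fit did.

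The inward rectifiers and the Kcnk leak channels, which set the resting potential, gave 0 calls by edgeR, with 3 of 11 tested Kcnk genes and 3 of 13 tested Kcnj genes at an unadjusted p under 0.05 over the entinostat libraries (29.1% of all genes), where DESeq2 called Kcnk1 and Kcnj12. Kcnk1 had 11.6 to 13.9 CPM in the combination libraries, 8.66 to 15.2 CPM with entinostat, 11.5 to 31.7 CPM with anti-PD-1 and 10.3 to 34.3 CPM in the control libraries, with a log2 fold change of -0.87 over the entinostat libraries (SE 0.32, adjusted p = 0.095). Kcnk3, an acid-sensitive leak channel, had 5.66 to 15.8 CPM in the combination libraries, 1.82 to 14.7 CPM with entinostat, 1.96 to 26.6 CPM with anti-PD-1 and 0.528 to 8.57 CPM in the control libraries. Kcnj6, which pairs with Kcnj3 in neurons, had 12.2 to 14.9 CPM in the combination libraries, 3.25 to 26.8 CPM with entinostat, 5.32 to 12.9 CPM with anti-PD-1 and 4.29 to 45.6 CPM in the control libraries. Kcnk6 had 1.51, 2.46 and 1.11 CPM in the combination libraries, 2.35, 1.29 and 1.86 CPM with entinostat, 1.00, 1.20 and 1.15 CPM with anti-PD-1, and 0.352, 0.993 and 0.759 CPM in the control libraries (combination against control log2 fold change 1.27, SE 0.53, adjusted p = 0.134).

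Proteins that bind these channels and the pumps that restore their gradients were described from a list of 54 genes, of which 51 were tested. Over the entinostat libraries 9 of 51 passed (17.6%, against 10.6% of all genes), 4 higher and 5 lower (against 3.87% and 6.74% of all genes). Against control, 8 passed in the combination (4 higher, 4 lower), where 11.7% of all genes passed (3.88% higher, 7.78% lower). With entinostat alone 4 passed (1 higher, 3 lower), where 5.27% of all genes did (1.3% higher, 3.98% lower). With anti-PD-1 alone 0 passed by edgeR or DESeq2 (0.00574% and 4.04% of all genes), and 5 had an unadjusted p under 0.05 (15.4% of all genes). When a library was left out, 3 to 10 partners passed over the entinostat libraries, 2 to 7 in the combination and 0 to 4 with entinostat alone. Over the other alternatives the counts were 0 to 12, 0 to 11 and 0 to 10 in the same comparisons. Atp2b4, a plasma membrane calcium pump, had 28.6, 11.7 and 34.8 CPM in the combination libraries, 14.0, 14.0 and 11.0 CPM with entinostat, 7.65, 14.3 and 6.59 CPM with anti-PD-1, and 4.89, 4.70 and 2.61 CPM in the control libraries. It rose over the entinostat libraries (log2 fold change 1.53, SE 0.31, adjusted p = 0.015). Also higher over those libraries were Atp1b2, a sodium pump subunit (1.05, SE 0.29, adjusted p = 0.040), Fgf11, an intracellular fibroblast growth factor homologue (1.53, SE 0.38, adjusted p = 0.029), and Stac2, an adaptor of L-type calcium channels (2.48, SE 0.58, adjusted p = 0.024). These calls passed in 4 (Atp1b2), 7 (Fgf11) and 8 (Stac2) of the 12 fits that left out a library, with adjusted p up to 0.10, 0.0833 and 0.0526 by edgeR.

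Hcn4, the pacemaker channel gene of the heart, had 3.00, 5.83 and 4.65 CPM in the combination libraries, 1.14, 3.87 and 4.18 CPM with entinostat, 10.4, 6.95 and 8.01 CPM with anti-PD-1, and 14.8, 14.7 and 14.4 CPM in the control libraries. Its libraries with entinostat were all below those without, and those with anti-PD-1 alone lay between them and control. It fell over the entinostat libraries by 1.58 on the log2 scale (SE 0.32, adjusted p = 0.015). Fgf13, which binds sodium channel tails, fell by 2.45 (SE 0.60, adjusted p = 0.028) and Dpp6, which brings Kcnd channels to the membrane, by 1.31 (SE 0.35, adjusted p = 0.039). Calm2, one of the genes for calmodulin, the calcium sensor bound to many of these channels, had 297, 398 and 333 CPM in the combination libraries, 462, 306 and 381 CPM with entinostat, 612, 488 and 844 CPM with anti-PD-1, and 1270, 1063 and 893 CPM in the control libraries. It fell by 1.20 (SE 0.17, adjusted p = 0.0066), and Calm3 by 0.75 (SE 0.18, adjusted p = 0.028). The calmodulin genes have near-identical coding sequences and processed copies, so how the authors' counting split their reads is uncertain. Over the entinostat libraries Calm2, Hcn4 and Atp2b4 passed in each of the 12 fits that left out a library, whereas Fgf13 and Calm3 passed in 6 each and Dpp6 in 4, with adjusted p up to 0.0691, 0.0666 and 0.0982 by edgeR.

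**Figure D4:**
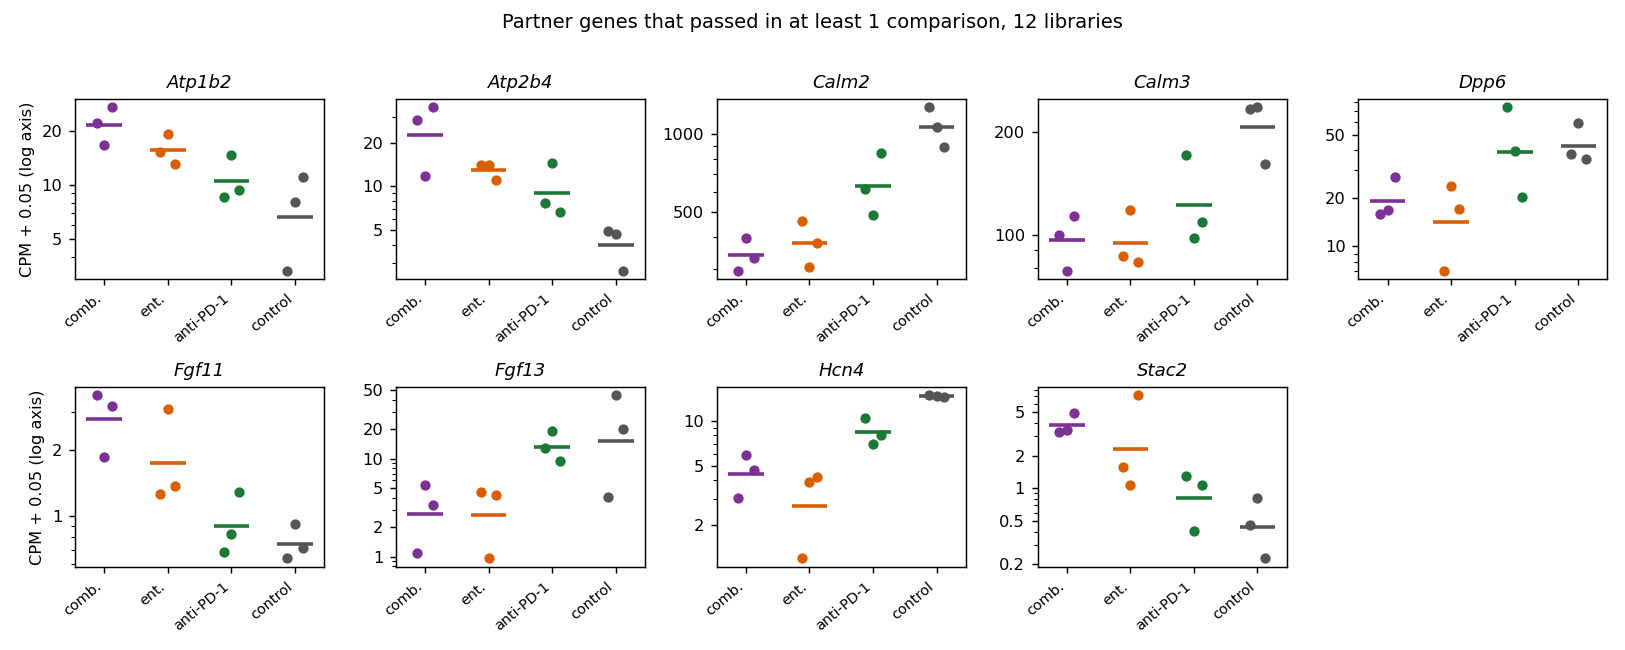
CPM plus 0.05 on a log axis of 9 partner genes that passed in at least 1 comparison; points are the 12 libraries in the order combination, entinostat, anti-PD-1 and control, and bars are geometric means of the plotted values. Calm2 and Hcn4 lie lower in all 6 libraries with entinostat than in the other 6, and Atp2b4 in all treated libraries higher than in control.

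Of 12 neuroendocrine markers, 4 were lower over the entinostat libraries (Uchl1, Calca, Scg2 and Scg5) and 0 higher, where 6.74% of all genes were lower and 3.87% higher. Their summed level was 522 to 1023 CPM in the combination libraries, 676 to 1182 CPM with entinostat, 889 to 1439 CPM with anti-PD-1 and 1211 to 2146 CPM in the control libraries. Of 16 alveolar markers 0 passed by edgeR and 0 had an unadjusted p under 0.05, with a median log2 fold change of 0.83 and summed levels of 229 to 742 CPM in the combination libraries, 268 to 795 CPM with entinostat, 169 to 617 CPM with anti-PD-1 and 130 to 572 CPM in the control libraries. None of these markers was at 0 in all libraries. With the mean log level of the alveolar list as a covariate, 0 channel genes passed over the entinostat libraries and 1 (Kcnc2) in the combination against control, where 264 and 331 of all genes passed. The part of these lists in the single channel results was otherwise not tested.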

How the data were processed

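RNA from flash-frozen, dissected tumour was made into poly(A)-selected Illumina libraries, per the labels' protocols. The authors deposited raw counts per gene for 12 libraries in a single table of 22738 rows. The submitters' processing notes list STAR 2.5.4a, Trim Galore, Trimmomatic 0.36, R 3.5.1, DESeq2 1.22.2 and build mm9. The annotation, the strand setting and the treatment of multiply mapped reads are not given in the sources consulted. Between 65.3% and 77.2% of counts of 1 to 20 were even, so fragments may have been counted at both ends and counting error may be larger than the counts imply; halved counts were an alternative.

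Libraries were grouped by title, because the treatment tag for the combination mentions no entinostat. The batch label is 2 throughout. In 66 pairs of libraries the smallest chi-square per degree of freedom was 33.5, so none was counted as a duplicate.

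The deposited counts were tested with edgeR 4.0.16 (R 4.3.3, limma 3.58.1): filterByExpr, TMM factors, a mean per group over all 12 libraries, glmQLFit with robust estimation and glmQLFTest. P-values were adjusted by Benjamini-Hochberg over all 17426 tested genes in each of 9 comparisons, with a threshold of 0.05. DESeq2 1.42.0, other scalings and filters, a replicate block, marker covariates and fits without each library were alternatives. The edgeR script was tested on simulated data. Named genes are those that passed in any comparison, the 3 with the most reads in each class, and the one with the smallest p where a class had no pass; genes outside this rule were chosen after their values were seen. Some genes that the rule names are not reported here. The members and gene lists were chosen with earlier results of these data known.

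Per-length levels used GENCODE M21 transcripts, all 133 genes matching. Promoter windows came from RefSeq on GRCm38.p6, where 98 of 133 genes matched; the counts carry no coordinates, so builds were not mixed.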

Additional observations from a re-analysis of the deposited data

How the results depend on the processing

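No channel or partner gene that passed changed direction under any alternative run. Counts of channel genes past the threshold moved as follows. Over the entinostat libraries the count was 4, with 1 under the replicate block, 0 with either marker covariate, 14 with DESeq2 and 1 to 6 when a library was left out. In the combination against control it was 6, with 3 without a filter, 0 under the replicate block, 1 with the alveolar covariate, 0 with the smooth muscle covariate, 11 with DESeq2 and 0 to 5 when a library was left out. With entinostat against control it was 1, with 0 under the replicate block, 0 with either covariate, 9 with DESeq2 and 0 to 2 when a library was left out. Among all genes DESeq2 called 19.6%, 20.6% and 13.7% in these 3 comparisons. It gave 3 channel genes with anti-PD-1 against control (4.04% of all genes) and 2 in the combination against anti-PD-1 (2.43%), where edgeR gave 0 for both. For any difference among the 4 groups the count was 0, with 1 on halved counts, 11 with DESeq2 and 0 to 1 when a library was left out. The cause of these moves was not tested, but over the entinostat libraries the block gave 974 calls among all genes, against 1849 without it, and either covariate gave 0 calls among all genes with entinostat against control. Replicate numbers did not pair the libraries: same-number pairs correlated at -0.29 to 0.23, with 8 of 18 above 0.1, and 1 library of 12 correlated best with its own number. Where a left-out library leaves 2 in a group, the spread is pooled over all groups. Genes with few reads, such as Kcna7 in the libraries without entinostat (0 to 12 reads), limit the precision of their fold changes.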
